A study of Mus musculus with 9 samples.

Results

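Baseline expression of the terminal colon was described from the 3 wild type arrays of a mouse study that holds 9 arrays in all. The arrays were chosen by their labels alone, which name genotype wt, stage E14 and tissue hindgut cells, and they are called 1B, 1C and 1D after their titles. The study asked how loss of the endothelin receptor gene Ednrb, in the whole embryo or in neural crest cells, changes gene expression in the hindgut; the mutant arrays enter no comparison here. The series text gives the age as 14.5 days where the sample labels give E14, and the labels name neither the strain nor the sex, nor whether an array stands for 1 embryo or for a pool. Terminal colon was dissected, so each RNA came from the whole wall and from whatever tissue was taken with it. Total RNA (150 ng) was amplified into cRNA carrying biotin, which was hybridised to Affymetrix MOE430 version 2 arrays.

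The embryonic colon is a tube of endoderm-derived epithelium inside mesenchyme, with a smooth muscle layer, blood vessels and an outer covering of mesothelium. Epithelium and mesenchyme pattern each other through Hedgehog, BMP, Wnt and other secreted signals. Enteric neural crest cells migrate along the gut and reach the terminal colon last. They depend on RET, the receptor for the ligand GDNF, and on EDNRB, the receptor for endothelin 3, and they give rise to the neurons and glia of the gut.

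Levels are given as log2 of the deposited intensity, so that a step of 1 is a doubling, and each gene is represented by its brightest probe set that names no other gene. A probe set's brightness depends on how well its probes bind as well as on how much RNA there is, so each gene was set against a background level and not against other genes. The background of an array was the 95th percentile of 74 receptor genes of smell and taste, which the gut is not known to use. It lay at 6.18 on 1B, 6.14 on 1C and 6.18 on 1D, and the receptor genes themselves had medians of 4.25, 4.29 and 4.36. Of 18193 genes measured, 12623 (69.4%) were above background on all 3 arrays, 4944 (27.2%) were near background on all 3, and 626 (3.44%) were above it on 1 or 2 arrays only. In such bulk samples, fewer cells of a type and less RNA per cell cannot be told apart. An array has no count depth, and the number of arrays limits the precision; with 1 group of 3 there is no comparison to test, so counts are set beside the same count over all genes and no p-value is given.

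**Figure D1:**
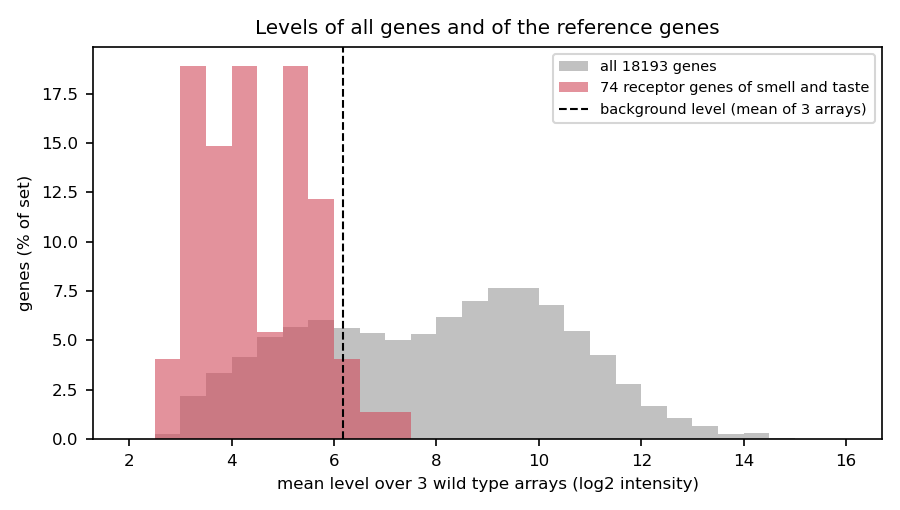
Histogram of the mean level of each gene over the 3 wild type arrays (log2 intensity, x axis) as a percentage of all 18193 genes (grey) and of the 74 receptor genes of smell and taste (red). The dashed line is the mean background level; most of the receptor genes lie left of it, and 69.4% of all genes were above background on all 3 arrays.

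The arrays were alike over most genes, and 1C differed from the others in a limited set. Pearson's r across genes, which are not independent replicates, was 0.9944 between 1B and 1C, 0.9957 between 1B and 1D and 0.9937 between 1C and 1D. The difference between 3′ and 5′ probe sets of Actb, a measure of RNA integrity, was 1.32 on 1B, 1.08 on 1C and 1.14 on 1D. Xist, the RNA that coats the inactive X chromosome, read 14.07 on 1B, 6.70 on 1C and 13.67 on 1D. The Y-linked genes Kdm5d (7.95, 9.76 and 8.07) and Eif2s3y (8.18, 9.94 and 8.37) were highest on 1C. Array 1C was thus low for Xist and high for the Y-linked genes, and the part of these values in the differences between arrays was not tested. Both Y-linked genes were above background on 1B and 1D as well. Of 5 sex-linked genes measured, 4 were above background on every array, and 2 with the background at the 99th percentile. Whether the readings on 1B and 1D were of Y-linked RNA was not tested. With that untested, a call above background at such levels is not read here by itself as evidence of a gene's RNA.

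Genes of protein synthesis dominated the brightest probe sets. Of the 25 brightest genes, 16 encode ribosomal proteins by their symbol, and Rpsa, a protein of the small ribosomal subunit, fell outside that symbol rule. Among the 100 brightest, 33 were ribosomal protein genes, and 41 of the 42 ribosomal protein genes measured were above background on all 3 arrays. The exception was Rps16, whose usable probe set read 3.71 on 1B, 3.59 on 1C and 3.78 on 1D. Rps7, a protein of the small subunit, read 14.50, 14.59 and 14.53. Eef1a1, which brings aminoacyl-tRNA to the ribosome, read 14.83, 14.85 and 14.79. The arrays differed little here, with a median range from lowest to highest array of 0.10 and a largest range of 0.31 among the 25. Rpl27a was the ribosomal protein gene that differed most, at 10.09 on 1B, 10.12 on 1C and 8.56 on 1D.

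The 9 other genes among the 25 brightest were Pik3cd, Tmsb10, Eef1a1, Col3a1, Tpt1, Rpsa, Plagl1, Acta2 and Lgals1. Tmsb10, which binds actin monomers, read 14.86 on 1B, 14.89 on 1C and 14.81 on 1D. Col3a1, the chain of collagen III, read 14.71, 14.70 and 14.70, a range of 0.01. Acta2, the smooth muscle actin, read 14.36, 14.35 and 14.34. Lgals1, a galectin of mesenchyme and muscle, read 14.29, 14.15 and 14.38, and Plagl1, an imprinted zinc finger gene of fetal growth, read 14.46, 14.51 and 14.20. Beyond the 25, Tmsb4x, Hspa8, Naca, Uqcrb, Actb and Actg1 were the next brightest outside the ribosome, with means from 14.20 for Actg1 to 14.25 for Tmsb4x.

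Several of these readings rest on a particular probe set. The brightest gene of all was Pik3cd, a subunit of a leukocyte PI3-kinase, at 15.91 on 1B, 15.85 on 1C and 15.83 on 1D, but its other 5 probe sets had means from 3.27 to 5.71, all below background. Of the 25 brightest genes, 18 had another probe set naming them alone, and the next brightest was within 2-fold in 11 and dimmer by more in 7: Pik3cd, Col3a1, Tpt1, Rps4x, Rpsa, Plagl1 and Acta2. For Pik3cd, Tpt1 and Rpsa it was near background on all 3 arrays. Acta2 had 2 further probe sets with means of 7.46 and 7.39. Without probe sets ending _s_at or _x_at, marked by Affymetrix as shared by several transcripts or open to cross-hybridisation, its level was 7.46. Those endings were carried by 10 of the 25, and the ending _a_at was not counted. When the mean of all probe sets stood for a gene, 11 of the 25 stayed among the brightest. The rank thus describes probe sets and not an order of transcript amounts.

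RefSeq's promoter sequences (GRCm38.p6) were read for the bright and the variable genes, with the 60 bases before the start shown for 1 bright gene of the ribosome, Rps7 (minus strand, chr12:28635954-28636013), and 1 of smooth muscle, Acta2 (minus strand, chr19:34255374-34255433).
Rps7: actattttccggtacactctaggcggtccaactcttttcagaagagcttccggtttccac
Acta2: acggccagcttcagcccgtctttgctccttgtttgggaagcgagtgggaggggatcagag
TATAAA was searched on the gene's strand from 40 to 20 bases before the start, CCAAT on either strand from 150 to 40 bases before it, and GGGCGG on either strand anywhere before it within the table's 250 bases. Of the 85 brightest 100 genes with an entry, 1.18% held TATAAA, 31.8% CCAAT and 60% GGGCGG, and of 37 ribosomal protein genes 0 held TATAAA. Over all 14452 measured genes with an entry the shares were 2.62%, 25% and 53.4%, and over all 32851 windows they were 1.87%, 19.8% and 32.7%. A match is a description of the letters only.

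Of 314 lineage genes measured, 204 (65.0%) were above background on all 3 arrays, near the 69.4% of all genes. In visceral smooth muscle and vascular endothelium every measured member was above background, as was every macrophage gene. In brain and retina it was 1 of 10, in foregut and stomach 3 of 11, and in skeletal and cardiac muscle 6 of 18. With the background at the 90th percentile of the receptor genes these became 2, 7 and 11. Brain and retina had 0 with the 99th percentile and 2 without 1B. Pericytes had 6 of 7 genes above background, glia and Schwann precursors 6 of 9, liver and pancreas 5 of 9, cartilage and bone 5 of 11, and germ cells and gonad 3 of 9. With the 99th percentile, cartilage and bone had 3 and germ cells and gonad 0. Liver and pancreas had 8 with the 90th percentile, and 3 without the probe sets ending _s_at or _x_at. With the mean of all probe sets, foregut and stomach had 5 and germ cells and gonad 1.

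**Figure D2:**
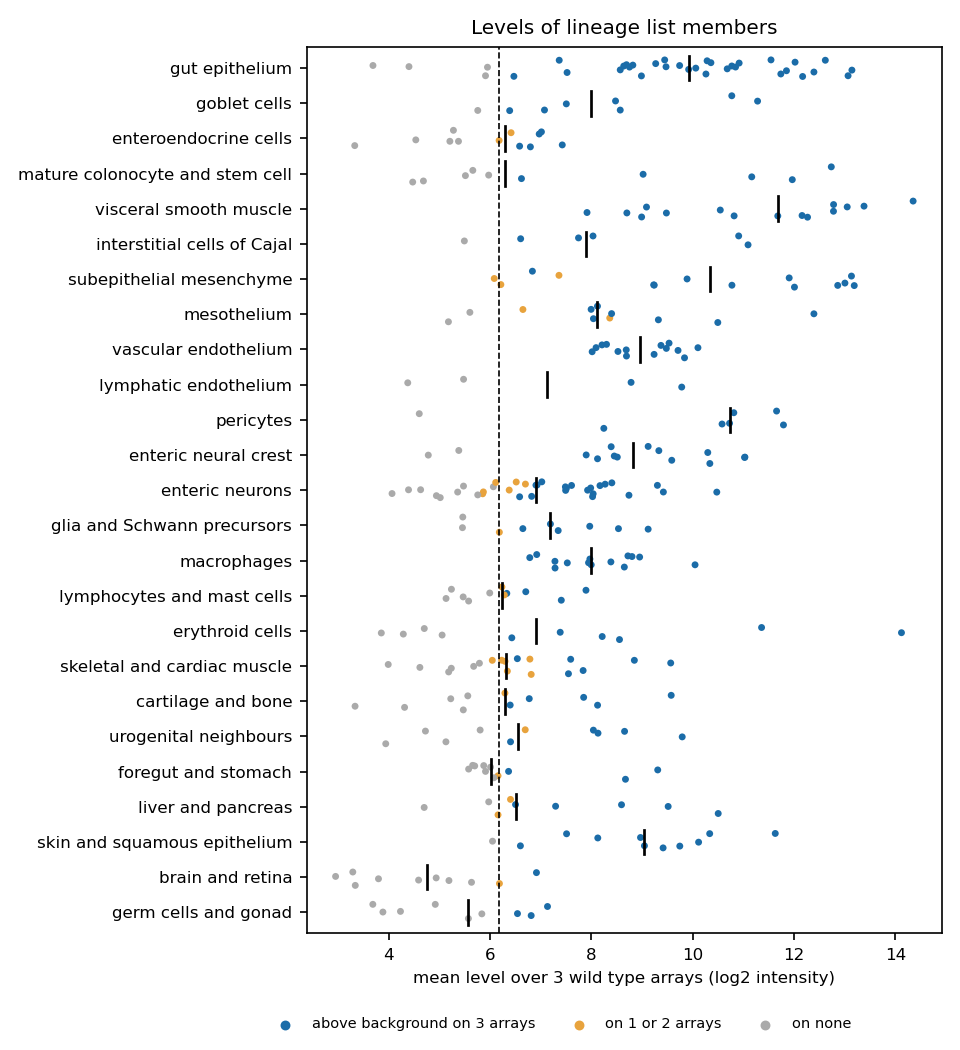
Mean level over the 3 wild type arrays (log2 intensity, x axis) of each measured gene of 25 lineage lists. Colours give the number of arrays on which the gene was above background, the dashed line is the mean background level and black bars are list medians; smooth muscle had 15 of 15 and brain and retina 1 of 10 genes above background on all 3 arrays.

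The epithelium read as gut endoderm. Of 35 gut epithelium genes, 31 were above background. Epcam, a cell adhesion protein of epithelia, read 12.60 on 1B, 12.59 on 1C and 12.67 on 1D, and Krt8, a keratin of simple epithelia, read 13.14, 12.99 and 13.07. Lgals4, a galectin of the gut lining, read 13.03, 13.04 and 13.37. Of the transcription factors of gut endoderm, 11 of 12 were above background: Hnf4a (10.10, 10.58 and 10.41), Foxa2 (10.25, 10.53 and 10.07) and Klf5 (12.12, 12.23 and 12.16) lay well above it. Cdx2, a homeobox gene that specifies intestine, read only 6.51, 6.56 and 6.35. Gata4, which marks more anterior gut, was near background at 5.87, 5.99 and 5.87.

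Of 10 genes of colonocytes and stem cells 5 were above background and 5 near it, and of 10 secretory and surface genes of gut epithelium 8 were above it. Fabp1 and Fabp2, the fatty acid binding proteins of absorptive cells, had means of 3.69 and 4.40, and Krt20, a keratin of differentiated colon surface, had 5.95. Of the colonocyte genes, Car1, Car4, Aqp8 and the chloride exchanger Slc26a3 were all near background, whereas the carbonic anhydrase Car2 read 11.81 on 1B, 11.86 on 1C and 12.23 on 1D. Lgr5, a stem cell gene of the adult crypt, stood close above background at 6.98, 6.19 and 6.69. Mki67, a gene of dividing cells, read 12.68, 12.82 and 12.71, and all 23 cell cycle genes were above background.

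Of 8 goblet cell genes 7 were above background, 4 of them with the background set at the 99th percentile of the receptor genes. Clca1, a secreted product of goblet cells, read 12 on 1B, 10.67 on 1C and 11.18 on 1D, while Muc2, the gel-forming mucin of the colon, read 6.54, 6.39 and 6.24. Among 12 enteroendocrine genes 5 were above background, and 1 with the 99th percentile. The somatostatin gene Sst read 7.33, 7.54 and 7.41, and Gcg, which encodes glucagon and its relatives, was near background at 3.29, 3.28 and 3.42.

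All 15 smooth muscle genes were above background on all 3 arrays, with a list median of 11.68 beside 8.16 for all genes. Myh11, the smooth muscle myosin heavy chain, read 12.28 on 1B, 11.80 on 1C and 12.39 on 1D, and Actg2, the enteric actin, read 12.24, 12.25 and 12.31. Myocd, the coactivator that drives the smooth muscle programme, read 9.55, 9.61 and 9.28. Of 14 genes of subepithelial mesenchyme 11 were above background, among them the PDGF receptor gene Pdgfra (13.25, 13.08 and 13.07) and the forkhead gene Foxf1 (11.89, 12.21 and 11.62). Barx1, a homeobox gene of stomach mesenchyme, passed background on 1D alone at 5.92, 6.06 and 6.28. Interstitial cells of Cajal, the pacemakers of gut muscle, were represented by Kit (10.87, 11.40 and 11) and the chloride channel gene Ano1 (10.71, 11.25 and 10.77), both highest on 1C.

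Of 35 genes of collagens and matrix 34 were above background, and Vtn, which encodes the plasma protein vitronectin, was near it with a mean of 5.28. All 12 basement membrane genes were above background, including the collagen IV gene Col4a1 at 12.65 on 1B, 12.73 on 1C and 12.54 on 1D. The list was not even between arrays: 21 of its 35 genes were lowest on 1C, where 33.8% of all genes were. Dcn, a proteoglycan that binds collagen, read 13.54, 12.50 and 13.53, and Postn, a matrix protein of connective tissue, read 12.25, 11.30 and 12.48. All but 1 of the 10 fibrillar and associated collagens and 10 of 13 glycoproteins and proteoglycans were lowest there, against 2 of 12 basement membrane genes. Col3a1 was among those lowest on 1C although its range was 0.01, and the proteoglycan gene Vcan was highest there, at 12.93, 13.07 and 12.88.

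Of 14 enteric neural crest genes 12 were above background. Sox10, a transcription factor of crest progenitors and glia, read 8.68 on 1B, 8.97 on 1C and 9.72 on 1D. Hand2, needed for enteric neuron differentiation, read 9.87, 10.64 and 10.38. Phox2a and Tfap2b were near background with means of 5.38 and 4.78. Of 18 pan-neuronal genes 13 were above background, such as Elavl4, an RNA-binding protein of neurons, at 7.49, 8.50 and 8.52, and Tubb3, the neuronal tubulin, at 6.52, 7.88 and 8.12. The synaptic gene Snap25 was near background on all 3 arrays at 6.14, 4.0 and 4.91.

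Transmitter genes were divided. Of 17 measured, 7 were above background, among them Penk, the enkephalin precursor, at 10.83 on 1B, 9.58 on 1C and 11.01 on 1D, and Nos1, the enzyme that makes nitric oxide in inhibitory neurons, at 8.11, 8.05 and 7.95. Gal, which encodes galanin, read 7.05, 7.90 and 9.01. Chat and Slc18a3, which make and package acetylcholine, had means of 5.48 and 4.94 and were near background. Vip, the gene of an inhibitory peptide, was above background on 1D alone, at 5.29, 6.03 and 6.29. Of 35 neuronal genes in all, 19 were lowest on 1B, beside 43.9% of all genes, and 2 on 1D, beside 22.2%.

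Vessels, blood and immune cells were also read. All 14 endothelial genes were above background, with Cdh5, the cadherin of endothelial junctions, at 9.65 on 1B, 9.99 on 1C and 9.88 on 1D. Of 4 lymphatic endothelium genes 2 were above background, Pdpn (9.71, 9.59 and 10.05), which other cell types also express, and the receptor gene Flt4 (8.67, 8.81 and 8.87). Prox1 and Lyve1 were near background with means of 4.38 and 5.48. All 14 macrophage genes were above background, led by the growth factor receptor gene Csf1r at 10.21, 9.60 and 10.33. Hbb-y, an embryonic beta globin, read 14.20, 14.32 and 13.84, and Hba-x, the embryonic zeta globin, read 11.33, 11.62 and 11.13. The probe set for the adult alpha globin gene Hba-a1 was near background at 4.18, 4.36 and 4.33. Probe sets naming several genes were not read, and the adult beta globin gene Hbb-b1 was not measured. The amount of adult globin RNA therefore cannot be judged from this reading. Of 11 lymphocyte and mast cell genes 4 were above background, and 2 with the 99th percentile.

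Genes of neighbouring or distant tissues were above background in part. The skin and squamous list had 10 of 11 genes above background, and the urogenital list 5 of 10, including the urothelial genes Upk2 (9.00, 8.27 and 8.69) and Upk1a (8.21, 7.94 and 8.24). Afp, the fetal albumin-like protein of yolk sac, liver and gut, read 10.12 on 1B, 10.70 on 1C and 10.70 on 1D. In foregut and stomach, Tff1 (9.28, 9.37 and 9.28) and Sox2 (9.09, 8.39 and 8.55) stood above background, whereas the lung and thyroid regulator Nkx2-1, the pancreatic regulator Pdx1 and both gastrokine genes were near it. Otx2, a regulator of the anterior brain, and Neurod6, of cortical neurons, had means of 3.34 and 2.95, within the range of the receptor genes.

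Hox genes, whose expression along the body axis sets position, were above background in part. Of 33 measured, 24 (72.7%) were so on all 3 arrays, near the 69.4% of all genes. Hoxd13, the most posterior gene of its cluster and one expressed in the hindgut, read 12.17 on 1B, 12.30 on 1C and 11.90 on 1D. Hoxb13 read 9.89, 10.54 and 9.98, and Hoxa9 read 10.94, 10.75 and 10.73. Hoxa13 exceeded background on 1C alone, at 6.0, 6.65 and 5.88, although its cluster had 7 of 9 genes above background. Hoxb1 and Hoxd1, from the anterior ends of their clusters, were near background with means of 3.95 and 3.69. The C cluster had 3 of 7 genes above background.

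Of 271 signalling genes measured, 235 (86.7%) were above background on all 3 arrays, beside 69.4% of all genes. Ligands made up 17 of the 29 signalling genes near background.

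**Figure D3:**
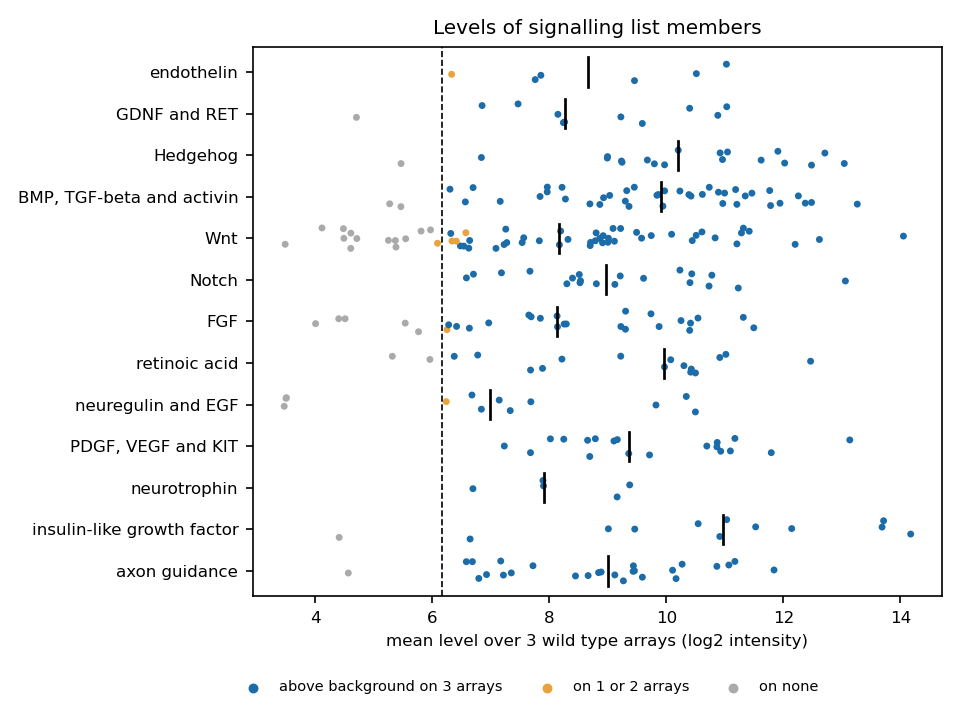
Mean level over the 3 wild type arrays (log2 intensity, x axis) of each measured gene of 13 signalling lists. Colours give the number of arrays on which the gene was above background, the dashed line is the mean background level and black bars are list medians; all 20 Notch genes were above background on all 3 arrays, and 42 of 59 Wnt genes were.

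The signals that enteric crest cells need were above background. Edn3, the ligand of EDNRB, read 7.38 on 1B, 8.28 on 1C and 7.90 on 1D, and Ednrb itself read 11.08, 10.95 and 11.05. Ece1, the enzyme that cleaves the endothelin precursors to active peptides, read 10.37, 10.69 and 10.47. Edn1 was at 7.82, 7.74 and 7.71, while Edn2 passed background on 1C and 1D only. Gdnf read 10.55, 11.24 and 10.84, its co-receptor gene Gfra1 10.91, 11.13 and 11.05, and Ret 8.91, 9.94 and 9.91. The ligands Nrtn (8.03, 8.06 and 8.35) and Artn (6.46, 6.83 and 7.26) were above background, and Pspn was near it with a mean of 4.70. Ret was lowest on 1B and ranged by 1.02 over the arrays, whereas Ednrb ranged by 0.13.

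Of 19 Hedgehog genes 18 were above background. Shh, the ligand made by gut epithelium, read 12.01 on 1B, 12.19 on 1C and 11.86 on 1D, and Ihh read 8.67, 9.19 and 9.11. Dhh, a ligand of Schwann cells and gonad, was near background with a mean of 5.46. All 10 receptors and effectors were above background, including the receptor Ptch1 (12.69, 12.97 and 12.46), the transducer Smo (11.52, 11.68 and 11.66) and the pathway's transcription factor Gli1 (10.14, 10.32 and 10.14). All 6 mesenchymal targets were above background as well, from Bmp4 at 12.47, 12.47 and 12.49 to Foxl1 at 6.73, 7.04 and 6.73. Of the 19 Hedgehog genes 13 were highest on 1C, beside 28.5% of all genes.

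BMP, TGF-beta and activin genes were above background in 40 of 42 cases. All 12 ligands and all 10 receptors were, such as Bmp7 (9.38, 9.32 and 9.27) and the receptor gene Bmpr1a (11.80, 11.76 and 11.78). Of 7 antagonists 6 were, and Nog, which encodes the BMP-binding protein noggin, was near background at 5.21 on 1B, 5.03 on 1C and 5.56 on 1D. Grem1, another BMP antagonist, read 8.93, 8.61 and 8.54, and Chrd, which encodes chordin, read 8.28, 7.98 and 8.39. Of the target genes Id1, Id2, Id3 and Id4 were above background, and the homeobox gene Msx2 was near it with a mean of 5.46.

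Of 59 Wnt genes measured 42 were above background. Of 19 ligands 10 were above background, 8 were near it and Wnt6 was above it on 1B and 1D only. Wnt5a, a ligand of gut elongation, read 9.83 on 1B, 9.47 on 1C and 9.17 on 1D, and Wnt4 read 10.13, 8.57 and 10.02. Wnt1, Wnt2b, Wnt3 and Wnt8a were among those near background. Of 19 receptors and potentiators 18 were above background, with Fzd2 at 11.44, 11.43 and 11.37, and Rspo4 was near it. The antagonists Sfrp1 (12.43, 12.74 and 12.68) and Frzb (8.61, 8.92 and 8.58) were above background, and Wif1 and Dkk4 were near it. Axin2, a feedback target of the pathway, read 8.80, 8.55 and 9.05, and Sp5, another target, was near background with a mean of 5.54.

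Notch and PDGF, VEGF and KIT genes were above background throughout, with 20 of 20 and 19 of 19. Jag1 read 10.77 on 1B, 10.93 on 1C and 10.62 on 1D, Notch2 11.31, 11.22 and 11.15, and the target Hes1 10.22, 10.18 and 10.29. Pdgfa, the ligand of PDGFRA, read 11.10, 10.94 and 10.74, and Kitl, the ligand of KIT, read 10.82, 11.01 and 10.78. In the FGF family 9 of 15 ligands, all 5 receptors and all 8 feedback and target genes were above background. Fgf9, an epithelial ligand, read 7.90, 8.64 and 8.32, and Fgf10, a mesenchymal one, read 7.52, 8.06 and 7.49. Fgf8, Fgf15 and Fgf2 were near background with means of 4.51, 4.40 and 4.0.

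Retinoic acid genes were above background in 15 of 17 cases, including the synthesising enzymes Aldh1a1 (12.24, 12.56 and 12.58) and Aldh1a2 (10.54, 10.60 and 10.34), and the degrading enzyme Cyp26a1 was near it with a mean of 5.31. In the neuregulin and EGF family 5 of 8 ligands were above background, the receptor genes Egfr (10.62, 10.43 and 10.43) and Erbb3 (10.19, 10.34 and 10.49) were too, and Erbb4 was near it at 3.43, 3.38 and 3.59. Igf2, an imprinted fetal growth factor, read 14.07 on 1B, 14.15 on 1C and 14.31 on 1D. Hmga2, a chromatin protein of fetal tissues, read 13.24, 13.67 and 13.16, while Lin28a and Lin28b had means of 4.11 and 2.95. All 12 axon guidance cues and 13 of 14 receptors were above background, among them Sema3a at 10.31, 10.28 and 10.21.

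Few genes varied among the arrays. The median range from lowest to highest array was 0.22, or 1.17-fold, over all genes. Of the 13249 genes above background on at least 1 array, 239 (1.8%) ranged at least 2-fold, and 40 of these at least 4-fold. Counting genes near background on all 3 arrays as well, the share that ranged at least 2-fold differed with the mean level: 0.717% of genes under 6, 3.31% from 6 to 8, 1.60% from 8 to 10, 0.284% from 10 to 12 and 0.543% over 12. Of the 239, 181 (75.7%) were lowest on 1C, 47 (19.7%) on 1B and 11 (4.60%) on 1D, where 33.8%, 43.9% and 22.2% of all genes were. With the probe sets and the background call taken over the arrays left, 58 genes differed at least 2-fold between 1B and 1D, 160 between 1C and 1D and 157 between 1B and 1C.

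A further probe set gave the same lowest array for most varying genes that had one above background. Of 66 varying genes with a second probe set above background, 58 (87.9%) had the same lowest array in both, and 45 (68.2%) had the same lowest and highest. Over all 6038 genes with such a pair the shares were 50.4% and 31.9%. In 41 of the 66 varying genes the second probe set itself ranged at least 2-fold. Varying genes whose second probe set was near background on every array were not counted. Among them were Dsc3, Tac1 and Esr1, whose second probe sets had means of 5.80, 4.06 and 4.15. The shares therefore do not describe such genes.

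**Figure D4:**
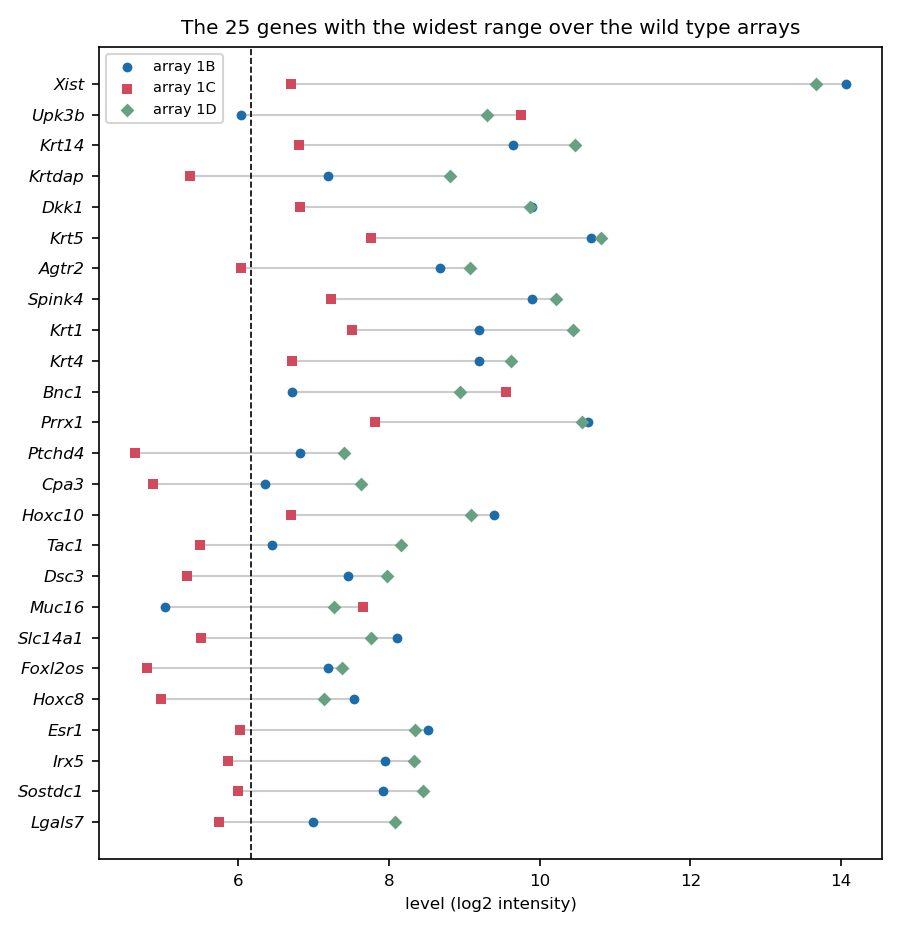
Level on each wild type array (log2 intensity, x axis; circle 1B, square 1C, diamond 1D) of the 25 genes with the widest range among genes above background on at least 1 array. The dashed line is the mean background level; 22 of the 25 were lowest on 1C and 3, Upk3b, Bnc1 and Muc16, on 1B.

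The 25 most variable genes had ranges from 2.34 to 7.37, and 10 of them were above background on all 3 arrays. In the other 15 the lowest reading was not above background, so their range does not give the size of the difference in RNA. After Xist, the leading group encoded proteins of stratified epithelium. Krt14, a keratin of basal epidermal cells, read 9.64 on 1B, 6.81 on 1C and 10.47 on 1D, and its second probe set read 8.07, 5.75 and 8.78. Krt5, its pairing partner, read 10.68, 7.76 and 10.81. Krt1, a keratin of the epidermal layers above, read 9.20, 7.50 and 10.44, and Krt4, of internal stratified linings, read 9.20, 6.71 and 9.62. Krtdap, a differentiation product of keratinocytes, read 7.19, 5.36 and 8.81, and Dsc3, a desmosomal cadherin, read 7.46, 5.32 and 7.97. The second probe set of Krt4 read 8.20, 5.75 and 8.64, while that of Dsc3 was near background at 5.78, 5.79 and 5.83. By their brightest probe sets all 6 were lowest on 1C and highest on 1D. They were picked from the most variable genes, so this is a description.

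To show what stands before genes of this pattern, the 60 bases before the start are shown for Krt5 (minus strand, chr15:101712906-101712965), Krt14 (minus strand, chr11:100206031-100206090) and Krtdap (plus strand, chr7:30787845-30787904), together with Cpa3 (minus strand, chr3:20242182-20242241), a mast cell protease gene that was also lowest on 1C and highest on 1D. Capitals mark TATAAA in the window searched, and the sequences are RefSeq's on GRCm38.p6.
Krt5: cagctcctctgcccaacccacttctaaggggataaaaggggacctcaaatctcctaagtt
Krt14: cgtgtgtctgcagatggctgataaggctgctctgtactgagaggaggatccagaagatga
Krtdap: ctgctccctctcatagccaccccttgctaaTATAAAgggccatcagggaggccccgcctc
Cpa3: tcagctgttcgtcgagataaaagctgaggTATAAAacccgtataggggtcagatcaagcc
TATAAA began 30 bases before the start in Krtdap and 31 before it in Cpa3. Of the 72 of the 100 most variable genes with an entry, 3 (4.17%) held TATAAA, 18.1% CCAAT and 43.1% GGGCGG. The shares of all measured genes were 2.62%, 25% and 53.4%. As Krtdap and Cpa3 were among those 3, the sequences shown are not typical of the most variable genes.

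The squamous list as a whole lay low on 1C. Of its 11 measured genes 10 were lowest on 1C and 0 on 1D, beside 33.8% and 22.2% of all genes. The median member lay 0.28 above its 3-array mean on 1B, -0.56 from it on 1C and 0.45 above it on 1D. The 10 genes above background were so on 1C as well. Trp63, the transcription factor of basal squamous cells, read 8.24 on 1B, 6.68 on 1C and 7.61 on 1D. The sum of the skeletal muscle markers Myod1, Myog, Acta1 and Ckm was also lowest on 1C. Its intensity was 383 on 1B, 252 on 1C and 533 on 1D, and 1 of these markers was above background on all 3 arrays. Of the 18 muscle genes 12 were lowest on 1C, beside 33.8% of all genes. Actc1, a striated muscle actin, read 9.88, 8.32 and 10.50, and Myh3, the embryonic myosin heavy chain, read 6.38, 5.24 and 7.41. Urothelial markers summed to 905, 626 and 807. Whether tissue next to the colon was taken with 1B and 1D was not tested.

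Several transcription factor genes were also low on 1C. Prrx1, a homeobox gene of limb and body wall mesenchyme, read 10.64 on 1B, 7.81 on 1C and 10.56 on 1D. Hoxc10 read 9.40, 6.70 and 9.09, Hoxc8 7.53, 4.97 and 7.14, and Hoxc4 7.25, 5.91 and 7.49. All 7 Hox C genes were lowest on 1C, where 33.8% of all genes were. In the A cluster it was 3 of 9, in the B cluster 0 of 9 and in the D cluster 4 of 8. Hoxa4, the other Hox gene that ranged at least 2-fold, was lowest on 1B at 6.07, 6.93 and 7.25. Irx5, an Iroquois homeobox gene, read 7.95, 5.86 and 8.33, and Esr1, the estrogen receptor alpha gene, read 8.51, 6.02 and 8.34. The second probe set of Prrx1 read 9.57, 6.81 and 8.96, while that of Esr1 was near background at 4.41, 4.03 and 4.01. Outside the transcription factors, Agtr2, the angiotensin II type 2 receptor gene of fetal mesenchyme, read 8.67, 6.03 and 9.07.

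Genes of signalling pathways were among the most variable too. Dkk1, an inhibitor of Wnt signalling, read 9.89 on 1B, 6.82 on 1C and 9.87 on 1D, and Sostdc1, a BMP and Wnt antagonist, read 7.91, 5.99 and 8.45. Sfrp2, another Wnt antagonist, read 12.53, 11.44 and 12.64, and Crabp1, which binds retinoic acid, read 10.94, 8.87 and 11.09. In the signalling lists 13 of 271 genes ranged at least 2-fold and in the lineage lists 46 of 314 did, beside 239 of all 18193 genes (1.31%). The lists and their members were chosen with earlier results of these data known, so these shares are a description only. Ntrk3, the receptor gene for neurotrophin 3, read 8.37, 6.75 and 8.55, again lowest on 1C.

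Within gut epithelium, most goblet cell genes were low on 1C. Tff3, a peptide that protects mucosa, read 11.37 on 1B, 9.45 on 1C and 11.49 on 1D, and Agr2, which folds mucin in the endoplasmic reticulum, read 9.16, 7.40 and 9.15. Spink4, a protease inhibitor of goblet cells that was not in the goblet list, read 9.90, 7.23 and 10.21. Atoh1, the transcription factor that commits cells to the secretory fate, read 8.74, 7.81 and 8.89. Of the 8 goblet genes 6 were lowest on 1C, beside 33.8% of all genes, 1 on 1B and 1 on 1D. The mucin gene Muc2 read lowest on 1D. The median member of the list lay -0.62 from its mean on 1C. The general epithelial markers did not share this: Epcam, Cdh1, Cdh17, Krt8, Vil1 and Cdx2 summed to an intensity of 20018 on 1B, 19346 on 1C and 19808 on 1D.

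Array 1B was low in mesothelial genes. Upk3b, a surface protein of mesothelium, read 6.04 on 1B, 9.76 on 1C and 9.30 on 1D, and its second probe set read 5.86, 8.96 and 8.59. Bnc1, a zinc finger gene of mesothelium, read 6.71, 9.55 and 8.94, and Muc16, a membrane mucin, read 5.03, 7.65 and 7.27. Wt1, the transcription factor of serosal mesothelium, read 7.12, 8.33 and 8.53. Of the 11 mesothelial genes 9 were lowest on 1B, beside 43.9% of all genes. The median member lay -0.71 from its mean on 1B, 0.42 above it on 1C and 0.33 above it on 1D. On 1B, Upk3b and Muc16 were below background. The exceptions were Krt19, which epithelium also expresses, and the retinoic acid enzyme gene Aldh1a2.

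Smaller and more general shifts separated the arrays in other cell types. The endothelial list had 12 of 14 genes lowest on 1B, beside 43.9% of all genes, with a median member -0.20 from its mean there. Macrophage genes had 10 of 14 lowest on 1C, beside 33.8% of all genes, and 13 of 14 highest on 1D, beside 48.1%. The markers Csf1r, C1qa, C1qb and Adgre1 summed to 2244 on 1B, 1600 on 1C and 2710 on 1D. The neuronal markers Elavl4, Tubb3, Stmn2 and Snap25 summed to 607, 880 and 1228, so the sum was lowest on 1B and highest on 1D. Snap25, near background, was itself highest on 1B. Of the 35 neuronal genes 19 were lowest on 1B, beside 43.9% of all genes, and 14 on 1C, beside 33.8%. For Tac1, the substance P precursor, the values were 6.45, 5.49 and 8.15. Its second probe set was near background at 3.99, 4.05 and 4.15. The smooth muscle list had little common shift, with list median deviations of -0.02, -0.02 and 0.04. Its genes still differed between arrays, with a median range of 0.33 beside 0.22 for all genes, and 0 of 15 ranged at least 2-fold. The markers Acta2, Actg2, Myh11, Tagln, Cnn1 and Des summed to 41245 on 1B, 38628 on 1C and 44465 on 1D.

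**Figure D5:**
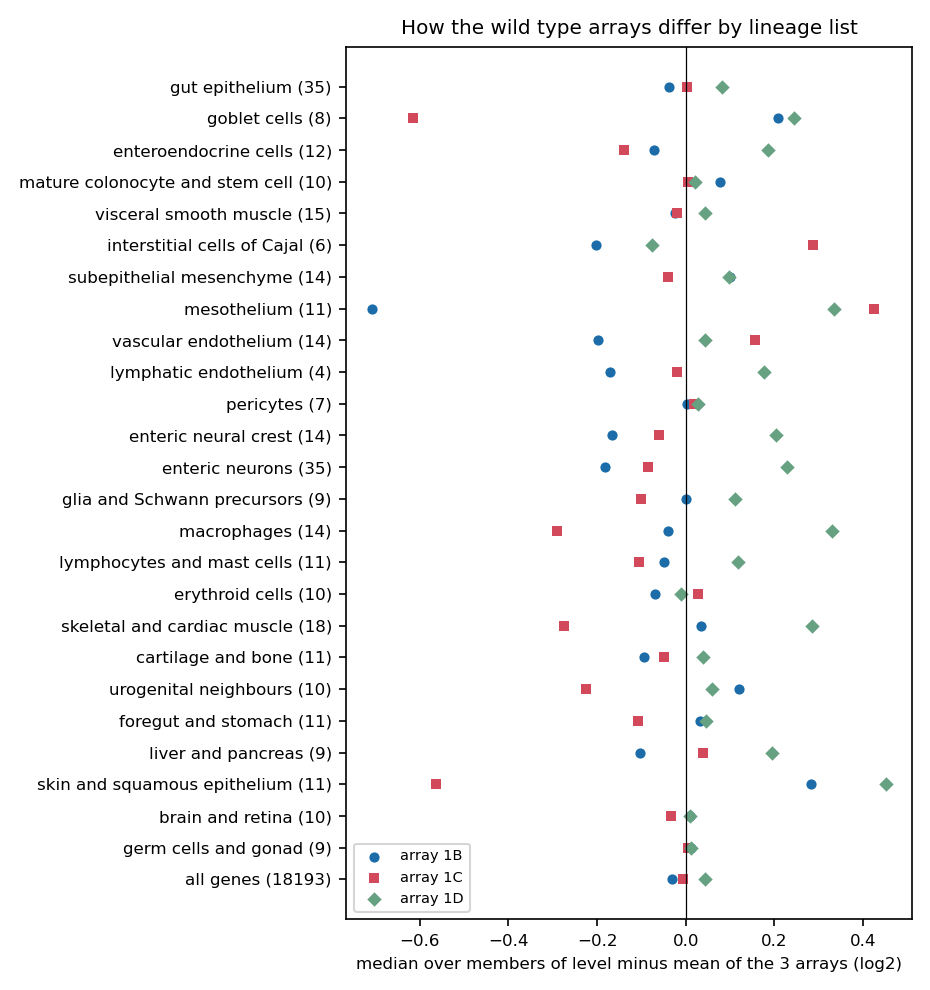
For each lineage list, the median over its measured genes (number in brackets) of the level on an array minus the gene's mean over the 3 wild type arrays (log2, x axis; circle 1B, square 1C, diamond 1D). Skin and squamous epithelium (-0.56) and goblet cells (-0.62) lay lowest on 1C, mesothelium (-0.71) lay lowest on 1B, and all genes together lay within 0.05 of 0.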

How the data were processed

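Probe set intensity values on a linear scale were deposited by the authors. Per the submitters' processing notes RMA produced them, with a version not given in the sources used here. The values of the 3 wild type arrays were converted to log2 with no further scaling, using Python 3.11.15, pandas 2.3.3 and numpy 2.4.6, and plotted with matplotlib 3.10.9. Of 45101 probe sets, 64 array controls were left out, 34945 named 1 gene, 932 named several and 9160 named none in GEO's platform annotation. The brightest probe set over the 3 arrays stood for each of 18193 genes, of which 18032 matched RefSeq (GRCm38.p6) by Entrez ID. Of 787 list genes 723 were measured. The named genes are the 25 brightest, the 15 brightest outside the ribosomal proteins, the 4 brightest members of each list, up to 3 members near background, members ranging at least 2-fold, signalling genes, and the 25 with the widest range. Further list members, such as Muc2, Hand2, Nos1, Cdx2 and Hoxa13, were named after their values were seen. The members and lists were chosen with earlier results of these data known. The counting steps were checked on simulated data.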

Additional observations from a re-analysis of the deposited data

How the results depend on the processing

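The count of genes above background stayed between 11008 (background at the 99th percentile of the receptor genes) and 13378 (90th percentile), and the count near background between 4176 and 6550, over all alternatives tried, which were the probe set rule, the marks of cross-hybridising probe sets, the percentile, the scaling and leaving out each array. The count of genes varying at least 2-fold was 171 to 247 over the alternatives that kept all arrays and the 2-fold limit, 956 at 1.5-fold and 40 at 4-fold, and 58 to 160 with each array left out in turn, lowest without 1C; fewer arrays give a smaller range by construction. Of the varying genes, 546 at 1.5-fold and 37 at 4-fold were lowest on 1C. Without 1C, 6 of the 25 most variable genes remained among them. Centring or quantile normalization moved no array's median by over 0.1, and kept the direction of the squamous, goblet and mesothelial shifts; endothelial genes lowest on 1B went from 12 to 10. Of 470 list counts, 19 moved by over 1.5 times. No paired analysis was possible because there is 1 group. Signal near background limits the calls of dim genes.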
